A study of Rattus norvegicus with 12 samples.

Results

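Mononucleated myoblasts become multinucleated myotubes by recognising each other, adhering and fusing, and the genes described here encode membrane proteins with roles in those steps. The list held 10 genes: the fusion proteins Mymk and Mymx, the cadherins Cdh15 and Cdh2, the immunoglobulin-type adhesion proteins Ncam1 and Jam3, the ferlin Myof, and the receptors Cdon, Boc and Neo1. Members were the probes whose RefSeq accession, version ignored, belonged to 1 of these rat symbols. Probes were matched for 5 of the 10 genes, against 16581 named genes among the 45598 probes of the arrays. These were Cdh15, Cdh2, Ncam1, Jam3 and Cdon, with 6 probes between them. For Mymk, Mymx, Myof, Boc and Neo1 no probe was matched here, so they were not analysed.

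Fusion runs in order: cadherins and immunoglobulin-type proteins hold opposed muscle cells together, receptors such as Cdon pass signals from those contacts to the myogenic programme, and Mymk and Mymx then drive the mixing and opening of the membranes. Cdh15 (M-cadherin) is the cadherin typical of skeletal muscle, and Ncam1 marks myoblasts and young myotubes. Integrins link the same membranes to the surrounding matrix, and actin remodelling shapes the contact site.

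The samples were L6 cells, a rat skeletal muscle line, differentiated into myotubes for 6 days according to the sample labels, while the study text gives another length. They then received a test compound at 60 µM in DMSO for 24 h, or DMSO as the control. GR24 is a synthetic strigolactone, a class of plant hormones, and pinosylvin and resveratrol are plant stilbenes. The study ran 3 independent experiments on the same cell line. These gave 12 one-colour Agilent arrays of total RNA, 3 each for control, GR24, pinosylvin and resveratrol.

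Each array held 58717 spots that were not controls, and the share marked well above background lay between 58.0% and 64.3%, with no saturated spot. Levels are given as log2 signal relative to the 75th percentile of the same array, so a level of 0 equals that percentile. Hybridisation differs between probes, so the level of 1 gene is not set against that of another. For testing, a probe had to clear the background mark of the scanner software in every replicate of some group, and 24279 probes did. Tests are limma's moderated statistics on all 12 arrays, and a difference counts as called at a Benjamini-Hochberg adjusted p under 0.05 over those probes. The p-values measure spread between 3 experiments on the same cell line, and the number of arrays limits the precision. RNA came from whole cultures, so fewer fused cells and less RNA per cell cannot be told apart. The 3 comparisons with the control share the same 3 control arrays.

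Of the 5 matched members, 4 were tested. Cdh2 (N-cadherin), the other cadherin of the list, had 2 probes, and neither stood well above background on any of the 12 arrays. Processed signals of these probes lay between 4.73 and 28.2 intensity units. Cdh2 was therefore not detectable here, and no fold is given for it.

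GR24 lowered all 4 tested members in L6 myotubes, where 25.5% of all tested probes were called lower and 31.5% higher. The cadherin Cdh15 fell most, to 30.6% of its control level, followed by the adhesion protein Ncam1. The receptor Cdon and the junctional protein Jam3 fell less, and their order depended on how dim signals were treated. Pinosylvin went the other way for Ncam1 and Cdon, which rose, where 8.28% of all tested probes were called higher. With resveratrol 1 member, Cdh15, was called, and it fell, where 8.99% of all tested probes were called lower. The calls of Cdon with pinosylvin and of Cdh15 with resveratrol were each lost on leaving out certain single arrays, and with replicate as a block Jam3 was called with both compounds.

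**Figure D1:**
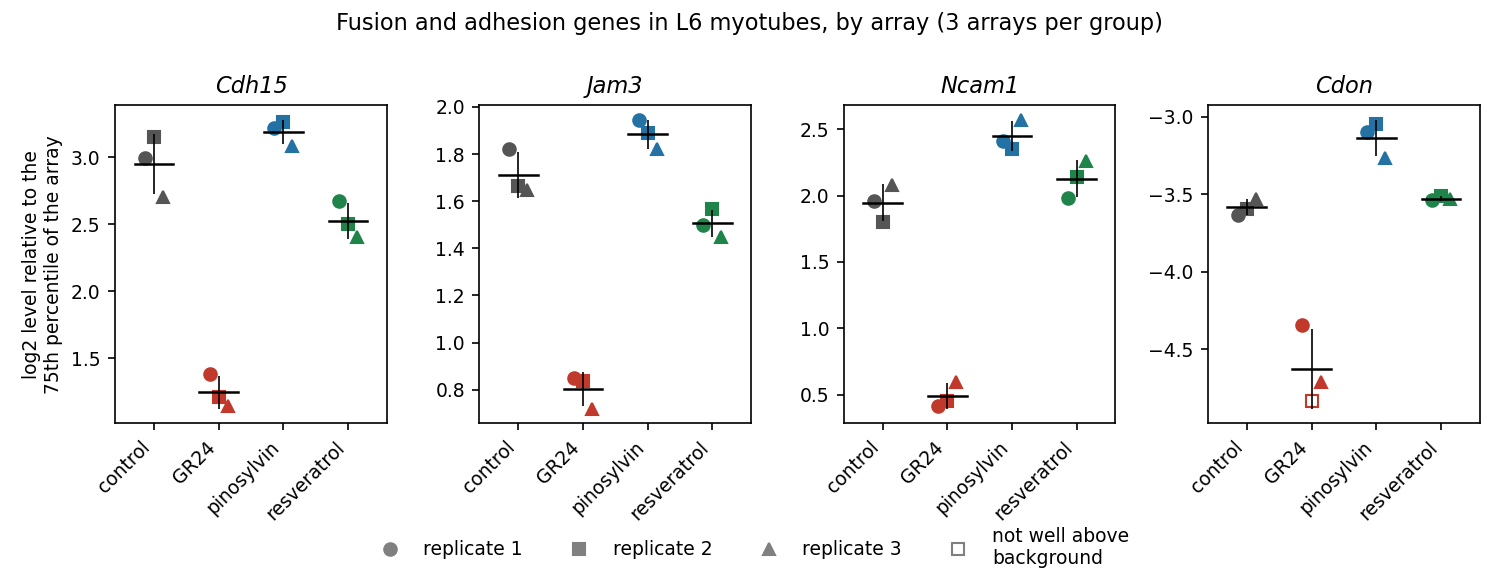
Log2 level of the 4 tested members on each of the 12 arrays, relative to the 75th percentile of the array, by treatment group; symbols mark the replicate, horizontal lines the mean and vertical lines 1 SD of 3 arrays, and the open symbol an array not well above background. Each panel has its own scale, and in each the 3 GR24 arrays lie below the other 9.

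Cdh15 had log2 levels of 3.00, 3.15 and 2.70 in control replicates 1, 2 and 3, and 1.38, 1.21 and 1.14 in the GR24 replicates. Under pinosylvin the levels were 3.22, 3.27 and 3.09, and under resveratrol they were 2.67, 2.50 and 2.41. All 3 GR24 arrays lay below the 9 others, the resveratrol arrays lay below every control array, and the pinosylvin arrays overlapped the controls. In rising order the group means were GR24 1.24 ± 0.12 (SD, n = 3), resveratrol 2.53 ± 0.14, control 2.95 ± 0.23 and pinosylvin 3.19 ± 0.092. At each replicate number the pinosylvin array lay above the control array. The neighbours control and pinosylvin were not separated by limma without a block (adjusted p = 0.22) or with replicate as a block. They were separated with slide as a block (adjusted p = 0.0458).

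Jam3, a junctional adhesion protein of the cell surface, had log2 levels of 1.82, 1.66 and 1.65 in the controls and 0.85, 0.84 and 0.72 with GR24. Pinosylvin arrays gave 1.94, 1.89 and 1.82, and resveratrol arrays gave 1.50, 1.57 and 1.45. GR24 stood apart from all other arrays. Resveratrol lay just under the controls, and the lowest pinosylvin array and the highest control array both stood at 1.82. The order of the means was GR24 0.80 ± 0.072 (SD, n = 3), resveratrol 1.51 ± 0.059, control 1.71 ± 0.096 and pinosylvin 1.88 ± 0.061. Control was not separated from either neighbour by the test on all 12 arrays, and was separated from both with replicate as a block (adjusted p = 0.0364 for pinosylvin and 0.019 for resveratrol).

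Ncam1, the neural cell adhesion molecule, had log2 levels of 1.96, 1.80 and 2.08 in the controls and 0.42, 0.45 and 0.60 with GR24. Pinosylvin arrays gave 2.41, 2.35 and 2.57, and resveratrol arrays gave 1.98, 2.14 and 2.26. GR24 was low on every array, pinosylvin was above every control and resveratrol array, and resveratrol overlapped the controls. Here the order was GR24 0.49 ± 0.096 (SD, n = 3), control 1.95 ± 0.14, resveratrol 2.13 ± 0.14 and pinosylvin 2.45 ± 0.11. Neither control and resveratrol nor resveratrol and pinosylvin were separated by the test on all 12 arrays, and the latter were separated with replicate as a block (adjusted p = 0.00752).

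Cdon, a receptor that promotes myogenic differentiation at cell contacts, was a dim probe, with processed signals between 29.4 and 94.9 intensity units. Its log2 levels were -3.63, -3.59 and -3.53 in the controls and -4.34, -4.83 and -4.71 with GR24, where replicate 2 was not well above background. Pinosylvin arrays gave -3.09, -3.04 and -3.27, and resveratrol arrays gave -3.54, -3.51 and -3.53. GR24 arrays were the lowest, pinosylvin arrays the highest, and resveratrol overlapped the controls. The means were GR24 -4.63 ± 0.26 (SD, n = 3), control -3.58 ± 0.052, resveratrol -3.53 ± 0.016 and pinosylvin -3.14 ± 0.12. Control and resveratrol did not differ beyond their spread.

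GR24 against control asks what a strigolactone does to myotube transcripts. In limma, 4 of the 4 tested members were called lower, where 25.5% of all tested probes were called lower and 31.5% higher. The median log2 difference of the members was -1.25, beside 0.027 over all tested probes, which was 0.13 with the percentile over spots. Cdh15 fell by 1.71 (SE 0.121, 95% interval -1.98 to -1.44, adjusted p = 8.27e-07), which is 3.26-fold. Ncam1 fell by 1.46 (SE 0.102, 95% interval -1.68 to -1.23, adjusted p = 7.47e-07), or 2.75-fold. Jam3 fell by 0.91 (SE 0.0717, 95% interval -1.07 to -0.75, adjusted p = 1.86e-06), or 1.88-fold. Cdon fell by 1.04 (SE 0.115, 95% interval -1.30 to -0.79, adjusted p = 2.17e-05), or 2.06-fold. For each of the 4, no GR24 array overlapped a control array, and the share of all tested probes without overlap was not counted.

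The arrays lay on 2 slides, replicates 1 and 2 on slide 1 and replicate 3 on slide 2, and each slide held all 4 groups. Within slide 1 and slide 2 the GR24 difference of Cdh15 was -1.78 and -1.56, and that of Ncam1 was -1.45 and -1.48. For Jam3 it was -0.90 and -0.93, and for Cdon -0.97 and -1.18. Every member thus fell on both slides, with 1 array per group on slide 2. The size for Cdon depended on how dim signals were treated, and so did its place beside Jam3. It was -0.60 in the deposited table of normalized values, -0.45 with normexp background correction and -0.38 with normexp and quantile normalization, and it was called each time. Normexp adds an offset of 50 to each signal, which compresses differences of dim probes by construction.

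**Figure D2:**
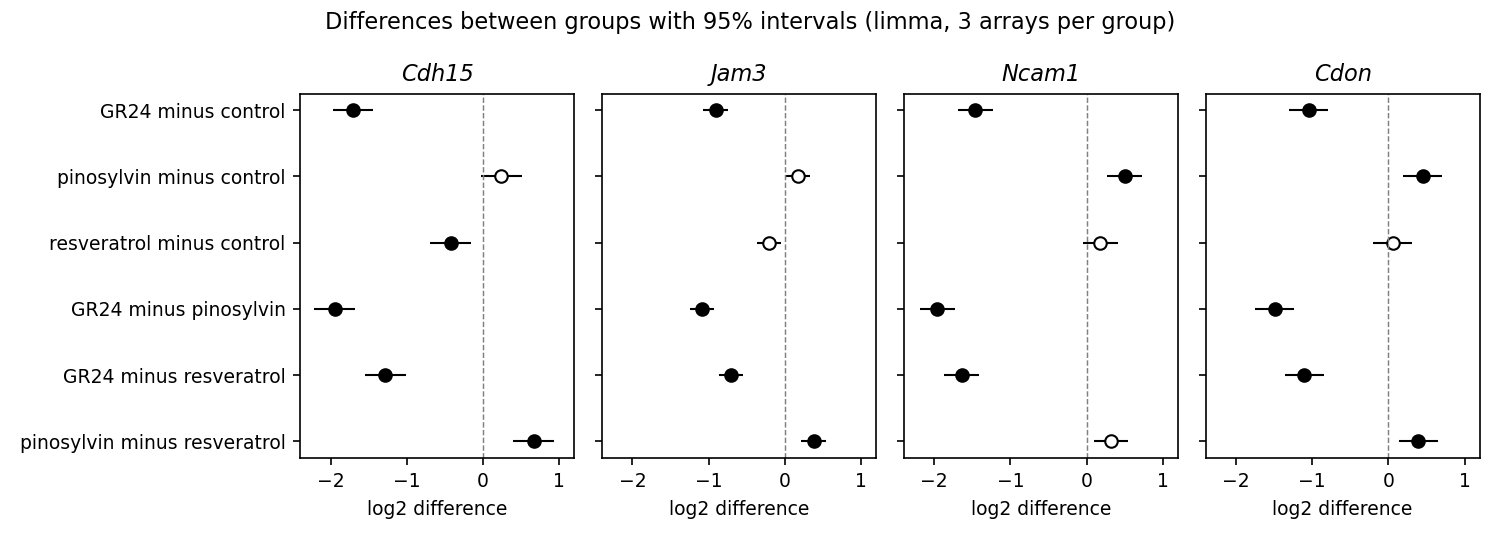
Log2 difference of each tested member in the 6 comparisons of treatment groups, with 95% intervals from limma on 12 arrays; filled points passed the test at an adjusted p under 0.05 and the dashed line marks no difference. GR24 lies below every other group for all 4 members, and pinosylvin lies above resveratrol, with Ncam1 short of the threshold.

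Pinosylvin against control gave 2 members called higher of 4, Ncam1 and Cdon, where 8.28% of tested probes were called higher and 8.27% lower. The members' median log2 difference was 0.34, beside 0.054 over all tested probes. Ncam1 rose by 0.50 (SE 0.102, 95% interval 0.27 to 0.73, adjusted p = 0.0075 in limma), or 1.41-fold, and was higher on 3 of 3 arrays than on any control. Within slides 1 and 2 its difference was 0.50 and 0.49. Cdon rose by 0.45 (SE 0.115, 95% interval 0.19 to 0.70, adjusted p = 0.023), or 1.37-fold, with 0.54 and 0.26 within the slides. That call was lost when control replicate 1, control replicate 2, pinosylvin replicate 1 or pinosylvin replicate 2 was left out, with differences of 0.43, 0.45, 0.43 and 0.40 and adjusted p-values of 0.075, 0.0581, 0.0738 and 0.0865. It was also lost with quantile normalization (0.45, adjusted p = 0.0708) and with normexp (0.25, adjusted p = 0.0577), while normexp with quantile normalization kept it at 0.23 (adjusted p = 0.0361).

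Neither Cdh15 nor Jam3 was called with pinosylvin. The log2 difference of Cdh15 was 0.24 (95% interval -0.029 to 0.51, adjusted p = 0.22), and it was 0.17 and 0.38 within slides 1 and 2. For Jam3 the difference was 0.17 (95% interval 0.014 to 0.33, adjusted p = 0.135), and 0.17 within each slide. With replicate numbers taken as pairs and replicate as a block in limma, Jam3 was called higher (adjusted p = 0.0364), which made 3 of 4 members. It was also called with normexp and quantile normalization (0.20, adjusted p = 0.042), again 3 of 4. With slide as a block Cdh15 was called as well (adjusted p = 0.0458), 4 of 4. Over all 24279 probes the blocks called 3954 (replicate) and 4031 (slide) higher, against 2010 without a block.

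Resveratrol against control gave 1 member called lower of 4, Cdh15, where 8.99% of tested probes were called lower and 7.99% higher. The members' median log2 difference was -0.074, beside 0.010 over all tested probes. Cdh15 fell by 0.43 (SE 0.121, 95% interval -0.69 to -0.16, adjusted p = 0.0359 in limma), or 1.34-fold, and was lower on 3 of 3 arrays than on any control. Within slides 1 and 2 its difference was -0.49 and -0.30. The call was lost without control replicate 1 (-0.40, adjusted p = 0.107), control replicate 2 (-0.33, adjusted p = 0.124) or pinosylvin replicate 1 (-0.43, adjusted p = 0.0526). Leaving out resveratrol replicate 2 (-0.41, adjusted p = 0.101) or resveratrol replicate 3 (-0.36, adjusted p = 0.115) also ended it. So did testing all probes without a filter (adjusted p = 0.102) and fitting only the 6 arrays compared (adjusted p = 0.107).

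Jam3 was lower with resveratrol by a log2 difference of -0.21 that missed the threshold (95% interval -0.36 to -0.046, adjusted p = 0.0795), and it was -0.21 and -0.20 within the slides. With replicate as a block Jam3 was called lower (adjusted p = 0.019), where 3350 of 24279 probes were called lower against 2182 without a block. It was also called lower with quantile normalization (-0.20, adjusted p = 0.0499), with normexp and quantile normalization (-0.20, adjusted p = 0.0429) and with the percentile taken over spots (-0.22, adjusted p = 0.0259). Ncam1 had a difference of 0.18 (95% interval -0.044 to 0.41, adjusted p = 0.278), 0.18 and 0.19 within the slides, and was called higher with slide as a block (adjusted p = 0.0456). For Cdon it was 0.057 (95% interval -0.20 to 0.31, adjusted p = 0.826), and 0.088 and -0.0036 within the slides. With normexp its sign turned, to -0.0086.

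The compounds themselves were compared in 3 pairs at the same dose and time. GR24, which is no stilbene, was called lower than pinosylvin for 4 of 4 members, where 26.8% of tested probes were called lower. Their differences were -1.95 for Cdh15, -1.96 for Ncam1, -1.08 for Jam3 and -1.49 for Cdon, with adjusted p-values in limma from 1.04e-07 to 1.75e-06. GR24 was also called lower than resveratrol for 4 of 4 members, where 23.9% of tested probes were called lower. There the differences were -1.28 for Cdh15, -1.64 for Ncam1, -0.70 for Jam3 and -1.10 for Cdon, with adjusted p-values from 4.98e-07 to 1.98e-05. The Cdon differences shrank to -0.62 against pinosylvin (normexp and quantile normalization) and -0.44 against resveratrol (normexp), and both were still called.

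Pinosylvin and resveratrol are closely related stilbenes, and resveratrol carries an additional hydroxyl group. Pinosylvin was called higher than resveratrol for 3 of 4 members, where 7.68% of tested probes were called higher. Cdh15 was higher with pinosylvin by 0.66 (SE 0.121, 95% interval 0.40 to 0.93, adjusted p = 0.00472 in limma), or 1.58-fold, and by 0.66 and 0.68 within the slides. For Jam3 it was 0.38 (SE 0.0717, 95% interval 0.22 to 0.54, adjusted p = 0.00592), or 1.30-fold, and 0.38 and 0.37 within the slides. No array of pinosylvin overlapped an array of resveratrol for any of the 4 members. How often this held over all tested probes was not counted.

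Cdon was higher with pinosylvin than with resveratrol by 0.39 (SE 0.115, 95% interval 0.14 to 0.65, adjusted p = 0.0459), and by 0.46 and 0.26 within the slides. This call was lost when control replicate 1, 2 or 3, GR24 replicate 3, pinosylvin replicate 1 or 2, or resveratrol replicate 1, 2 or 3 was left out. The differences were then 0.39, 0.39, 0.39, 0.39, 0.37, 0.35, 0.39, 0.40 and 0.39 in that order, with adjusted p-values from 0.0531 to 0.151. It was also lost with quantile normalization (0.29), with normexp (0.26), with both (0.15) and in the deposited table (0.21). Ncam1 had a difference of 0.32 (SE 0.102, 95% interval 0.092 to 0.54, adjusted p = 0.0651), which missed the threshold and was 0.32 and 0.31 within the slides. With replicate as a block it was called higher (adjusted p = 0.00752), which made 4 of 4, where 3507 of 24279 probes were called higher against 1864 without a block. That the stilbenes act alike on Ncam1 is not shown by the missed threshold, since the interval reaches 0.54.

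Over the 12 arrays, 5 named genes followed Cdh15 most closely, among 10291 candidates and measured as the root mean square difference of log2 values relative to the control mean. They were Jsrp1, a protein of the sarcoplasmic reticulum, at 0.093, the cytokine signalling inhibitor Socs2 at 0.10, the tetraspanin Tspan33 at 0.10, the kinase Nek6 at 0.11 and the retinoic acid binding protein Crabp2 at 0.12. Jsrp1 had log2 differences of -1.73 with GR24, 0.32 with pinosylvin and -0.49 with resveratrol. By this measure, which reflects the size of a change as well as its pattern, the other members lay farther from Cdh15. Ncam1 was at 0.42, with 463 candidates closer, Jam3 at 0.43 with 507 closer, and Cdon at 0.45 with 548 closer.

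The upstream sequence is shown for tested members that fell together with GR24, with E-boxes, the motif bound by myogenic factors such as MyoD and myogenin, in capitals. The E-box was searched as CANNTG, which reads the same on both strands, and its form CAGCTG is contained in it. RefSeq promoter sequences (build GRCr8, 250 bases before the gene start) were matched for 2 of the 4 tested members, Cdh15 and Cdon, and not for Ncam1 and Jam3. Cdh15 (chr19:67814407-67814656, plus strand) held 3 matches to CANNTG and 0 to CAGCTG, and Cdon (chr8:42063752-42064001, plus strand) held 0 of either.
Cdh15: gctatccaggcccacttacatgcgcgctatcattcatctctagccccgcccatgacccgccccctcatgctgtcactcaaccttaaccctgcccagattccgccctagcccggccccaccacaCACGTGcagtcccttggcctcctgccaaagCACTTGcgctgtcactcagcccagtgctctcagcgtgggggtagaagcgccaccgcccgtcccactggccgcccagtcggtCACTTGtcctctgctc
Cdon: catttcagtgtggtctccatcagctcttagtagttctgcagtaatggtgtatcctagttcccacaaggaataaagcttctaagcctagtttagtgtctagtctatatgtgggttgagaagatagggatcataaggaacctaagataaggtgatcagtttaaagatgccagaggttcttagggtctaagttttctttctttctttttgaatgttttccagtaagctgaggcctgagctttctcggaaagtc
Of 33469 promoters of this length, 65.5% held CANNTG and 12% held CAGCTG. A match describes the letters only.

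Genes with related roles were counted in lists, first for GR24 against control, where 31.5% of all tested probes were called higher and 25.5% lower. With replicate as a block, 8799 of 24279 probes were called higher and 7365 lower, against 7658 and 6196 without a block. The integrin list held integrins, the matrix receptors of the muscle membrane, and the integrin-binding protein Itgb1bp2. Its 7 tested genes, 6 integrin chains and Itgb1bp2, were all called lower, of 12 listed and 9 matched, with a median of -1.05. Itgb1bp2 (melusin) fell by 4.58 (SE 0.136, adjusted p = 2.01e-09), Itga6 fell by 2.15 (SE 0.0877, adjusted p = 1.41e-08), Itga1 fell by 1.84 (SE 0.069, adjusted p = 8.29e-09) and Itga7, the main laminin receptor chain of muscle fibres, fell by 1.05 (SE 0.113, adjusted p = 1.89e-05). Other membrane fusion and repair genes were mixed, with 2 called higher and 6 lower of 14 tested (8 lower with replicate as a block), of 21 listed and 19 matched, and a median of -0.18. Cav3, the caveolin of muscle, fell by 2.44 (SE 0.0922) and Vcam1, an adhesion protein of the immunoglobulin type, fell by 2.15 (SE 0.116). Where a gene stayed below the background mark on the 3 GR24 arrays, its fold was limited and is given as "at least", on the scale used here. It was computed per array against the higher of the gene's own level and the lowest level of a probe well above background. Where the limited fold equals the fitted fold, it is no lower bound and is given as fitted. Where the gene's own level was the higher on only some arrays, it is no strict lower bound either and is called limited. On that basis the membrane repair gene Trim72 had a limited fold of 9.76-fold lower, beside a fitted 10.6-fold. Dysferlin, Dysf, was also below the background mark, and its fitted fold was 3.06-fold lower. In the deposited table the log2 differences of Trim72 and Dysf were smaller, -1.87 and -0.79.

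Cadherins, catenins and nectins, which form the adhesion junctions in which Cdh15 acts, had 1 called higher and 6 lower with GR24 of 11 tested (8 lower with replicate as a block), of 15 listed and 14 matched, with a median of -0.44. Cdh11 fell by 1.82 (SE 0.0808, adjusted p = 2.67e-08) and beta-catenin, Ctnnb1, fell by 0.54 (SE 0.122, adjusted p = 0.0031). Nectin1 stayed below the background mark with GR24, and its fitted fold, which is no lower bound, was 3.10-fold lower. In the deposited table its log2 difference was -0.97. Afadin, Afdn, the nectin-binding scaffold, rose by 0.52 (SE 0.0672, adjusted p = 6.94e-05). In the pathway of Cdon, Boc and neogenin, 4 were called higher and 8 lower of 15 tested, of 27 listed and 25 matched, with a median of -0.37. Hjv, a neogenin ligand and co-receptor for bone morphogenetic proteins, fell by 3.23 (SE 0.117, adjusted p = 7.1e-09). Ntn4, a netrin, fell by 1.51 (SE 0.0808). The kinase Mapk11 had a limited fold of 4.08-fold lower, beside a fitted 4.93-fold (-1.07 in the deposited table). Its activating kinase Map2k3 rose by 0.75 (SE 0.064). Without control replicate 1, GR24 replicate 1 or GR24 replicate 2 the 4 higher became 2.

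Of the actin remodelling genes, 5 were called higher and 4 lower with GR24 of 16 tested, of 24 listed and 17 matched, beside 31.5% and 25.5% of all tested probes, with a median of 0.14. The number higher was 8 with quantile normalization and 7 with replicate as a block, and it was 3 without GR24 replicate 1, GR24 replicate 2 or control replicate 3. Dock1, an activator of Rac needed for fusion, fell by 1.01 (SE 0.0987), vinculin, Vcl, fell by 0.96 (SE 0.114) and talin, Tln1, fell by 0.78 (SE 0.134), while the small GTPase Arf6 rose by 0.78 (SE 0.114). Among fusion signals and proteases, 1 was called higher and 5 lower of 13 tested (6 lower with replicate as a block). In that list 15 genes were listed and 15 matched, and the median was -0.13. Follistatin, Fst, which promotes fusion, fell by 2.33 (SE 0.0994, adjusted p = 1.95e-08), the prostaglandin receptor Ptger4 fell by 1.12 (SE 0.0958) and the matrix protease Mmp14 fell by 1.07 (SE 0.0699). Nfatc1 fell by 0.74 (SE 0.166), and by 0.41 as the mean of its probes. Myogenic factors had 1 called higher and 5 lower of 8 tested, of 9 listed and 8 matched, with a median of -0.84. Myogenin, Myog, fell by 5.83 (SE 0.145, adjusted p = 5.53e-10), and Myod1 was at least 3.21-fold lower, with -1.06 in the deposited table.

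**Figure D3:**
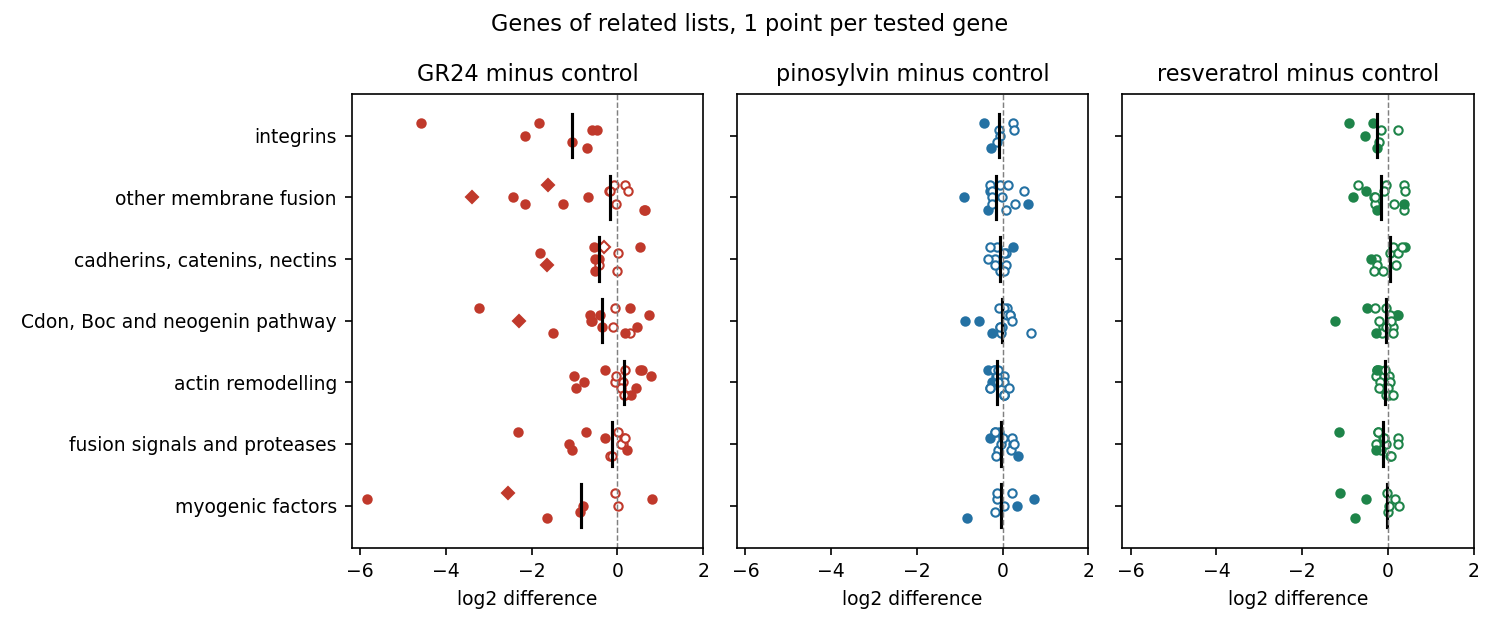
Log2 difference from control of each tested gene in 7 related lists, for GR24, pinosylvin and resveratrol; filled points passed the test at an adjusted p under 0.05, diamonds are genes below the background mark on the 3 arrays of a group, and black bars mark list medians. With GR24 the 6 integrins and Itgb1bp2 lie below 0, and actin remodelling genes lie on both sides.

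With pinosylvin the medians of the related lists lay between -0.16 for other membrane fusion genes and -0.022 for the Cdon, Boc and neogenin pathway, beside 0.054 over all tested probes, of which 8.28% were called higher and 8.27% lower. The medians of that pathway and of the myogenic factors turned positive with normexp, to 0.0095 and 0.0068. Replicate as a block called 3954 of 24279 probes higher and 2993 lower, against 2010 and 2009 without a block. The integrin list had 2 of 7 called lower, Itga1 by a log2 difference of -0.44 (SE 0.069, adjusted p = 0.00158) and Itgb1 by -0.28 (SE 0.0659, adjusted p = 0.0147), and 2 more were called higher with replicate as a block. Itgb1 missed the threshold without a filter (adjusted p = 0.0743) and with only the 6 arrays compared (adjusted p = 0.0552). Other membrane fusion genes had 1 higher and 3 lower of 14 (2 and 6 with replicate as a block). Vcam1 rose by 0.60 (SE 0.116, adjusted p = 0.00545) and the tetraspanin Cd9 fell by 0.35 (SE 0.0753, adjusted p = 0.0101). The 3 lower became 1 without control replicate 1. Myogenic factors had 2 higher and 1 lower of 8: Myog rose by 0.73 (SE 0.145, adjusted p = 0.00654) and Myf6 fell by 0.84 (SE 0.147, adjusted p = 0.00318), with a difference of -0.32 under normexp. On slide 1 alone Vcam1 (0.51, adjusted p = 0.0719) and Myog (0.68, adjusted p = 0.0768) missed the threshold. The 2 higher became 1 without control replicate 1, 2 or 3, GR24 replicate 1, pinosylvin replicate 1 or 2, or resveratrol replicate 2.

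In the pathway of Cdon, Boc and neogenin, pinosylvin had 3 called lower of 15, and 1 higher beside them with replicate as a block. Mapk11 fell by 0.88 (SE 0.178, adjusted p = 0.0074, 2 of 3 pinosylvin arrays well above background). That call was lost with normexp (-0.27, adjusted p = 0.0923) and on slide 1 alone (-0.75, adjusted p = 0.0802). Fusion signals and proteases had 1 higher and 1 lower of 13 (2 and 1 with replicate as a block). The matrix protease Mmp2 rose by 0.36 (SE 0.0682, adjusted p = 0.00539), and the 1 lower was lost on leaving out any array other than GR24 replicate 3. Cadherins, catenins and nectins had 1 higher of 11, and 1 higher and 2 lower with replicate as a block. That 1 was lost on leaving out any array other than control replicate 1 and pinosylvin replicate 2. Actin remodelling genes had 3 lower of 16 (5 with replicate as a block), and 0 without pinosylvin replicate 1 or 2 and 1 without control replicate 1, 2 or 3. Of the 26 genes of these and the marker lists taken by the naming rule for pinosylvin, 16 kept their call with each array left out, and the genes named here with a value are among them.

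With resveratrol the medians of the related lists lay between -0.25 for the integrin list and 0.041 for cadherins, catenins and nectins, beside 0.010 over all tested probes, of which 7.99% were called higher and 8.99% lower. The median of the pathway list was -0.051 and turned to 0.0010 with normexp and quantile normalization. Replicate as a block called 3419 of 24279 probes higher and 3350 lower, against 1941 and 2182 without a block. The integrin list had 4 of 7 called lower, and 1 more higher with replicate as a block. Itgb1bp2 fell by 0.91 (SE 0.136, adjusted p = 0.00127), Itga6 fell by 0.53 (SE 0.0877, adjusted p = 0.00227) and Itga1 fell by 0.36 (SE 0.069, adjusted p = 0.00555). Other membrane fusion genes had 1 higher and 4 lower of 14 (4 and 7 with replicate as a block). Annexin A5, Anxa5, fell by 0.50 (SE 0.0858, adjusted p = 0.0027). The 4 lower became 1 without control replicate 1, resveratrol replicate 1 or resveratrol replicate 3, and 2 without GR24 replicate 1, pinosylvin replicate 1 or 2, control replicate 2 or resveratrol replicate 2. The 1 higher, Vcam1, lost its call without control replicate 1, 2 or 3, GR24 replicate 2 or 3, pinosylvin replicate 1, 2 or 3, or resveratrol replicate 1 or 3. Myogenic factors had 3 lower of 8, and 1 more higher with replicate as a block. Myod1 fell by 1.11 (SE 0.233, adjusted p = 0.00846, 2 of 3 resveratrol arrays well above background), with -0.40 under normexp.

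In the pathway of Cdon, Boc and neogenin, resveratrol had 1 called higher and 3 lower of 15 (2 and 3 with replicate as a block). Gli1, a transcription factor of hedgehog signalling, fell by 1.23 (SE 0.133, adjusted p = 0.000183), and by 0.80 with normexp. The 3 lower became 1 without control replicate 1 or 2, and the 1 higher was lost without control replicate 1 or 3, GR24 replicate 1, pinosylvin replicate 2, or resveratrol replicate 1, 2 or 3. Fusion signals and proteases had 3 lower of 13 (4 with replicate as a block), and 1 without control replicate 1, control replicate 2 or resveratrol replicate 3. Fst fell by 1.15 (SE 0.0994, adjusted p = 4.93e-05). Cadherins, catenins and nectins had 1 higher and 1 lower of 11 (1 and 4 with replicate as a block). Afdn rose by 0.39 (SE 0.0672, adjusted p = 0.00271), and the 1 lower was lost without control replicate 1 or 2 or resveratrol replicate 1 or 3. Actin remodelling genes had 1 lower of 16 (3 with replicate as a block). It was Rac1, which lost its call without control replicate 1 or 2, GR24 replicate 2, pinosylvin replicate 1 or 2, or resveratrol replicate 1, 2 or 3. Of the 27 genes of these and the marker lists taken by the naming rule for resveratrol, 15 kept their call with each array left out, and the genes named here with a value are among them.

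The members are genes of muscle cells, so markers of cell types were counted beside them. Over all tested probes, 31.5% were called higher and 25.5% lower with GR24. The shares were 8.28% and 8.27% with pinosylvin, and 7.99% and 8.99% with resveratrol. Replicate as a block raised these counts over all probes too. Myotube markers were present on all arrays, which fits the labelled cell type, and 8 of 10 tested fell with GR24 (9 with replicate as a block; 12 listed, 10 matched; median -1.59). Their summed signal, relative to the 75th percentile, was 723, 784 and 677 in the controls, 304, 291 and 286 with GR24, 811, 841 and 780 with pinosylvin, and 594, 605 and 568 with resveratrol. The sum was lowest with GR24, next with resveratrol, and the lowest pinosylvin array lay below the highest control; Myh3, an embryonic myosin, was the brightest probe. Acta1 fell by 3.88 (SE 0.0777), Actc1 fell by 2.90 (SE 0.0781) and Ckm fell by 2.58 (SE 0.137) with GR24. With pinosylvin 2 of 10 rose (median 0.23; 5 higher and 1 lower with replicate as a block), among them the troponin Tnnt3 rose by 0.54 (SE 0.0773, adjusted p = 0.000919). With resveratrol 5 of 10 fell (median -0.32; 8 with replicate as a block; 3 without control replicate 2 or resveratrol replicate 3), among them Ckm fell by 1.04 (SE 0.137) and Actc1 fell by 0.80 (SE 0.0781). Pinosylvin was called higher than resveratrol for 8 of 10, where 7.68% of all tested probes were called higher. The part of a changed myotube content in the member differences was not tested.

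Over all tested probes, 31.5% were called higher and 25.5% lower with GR24. Leukocyte markers had 2 of 3 tested higher with GR24, of 5 listed and 5 matched, with a median of 1.80. Their summed signal was 1.16, 1.09 and 1.21 in the controls and 4.25, 4.14 and 3.71 with GR24. The GR24 arrays lay above all others, and pinosylvin arrays gave 1.18, 0.98 and 1.04 and resveratrol arrays 1.15, 1.26 and 1.27. Cd68 rose by 2.67 (SE 0.172) and Cd14, the brightest probe, rose by 1.80 (SE 0.113), while Ptprc, the marker that defines leukocytes, stayed below the background mark throughout. Fibroblast markers had 1 called higher and 4 lower of 5 tested with GR24, of 6 listed and 5 matched, with a median of -0.81, and Col1a1 was the brightest. The 1 higher was lost without GR24 replicate 1, GR24 replicate 2 or control replicate 3. Their summed signal was 122, 122 and 114 in the controls, 70.8, 68.1 and 65.6 with GR24, 87.8, 95.3 and 100.3 with pinosylvin and 89.5, 85.7 and 95.5 with resveratrol. In this sum, where the bright Col1a1 weighs most, all treated arrays lay below the controls. Thy1 fell by 0.90 (SE 0.0772), Lum fell by 0.85 (SE 0.0989) and Col1a1 fell by 0.81 (SE 0.0745) with GR24. With pinosylvin 2 fibroblast markers were higher and 2 lower, beside 8.28% and 8.27% of all tested probes. With resveratrol 1 fibroblast marker was higher and 1 lower, beside 7.99% and 8.99% of all tested probes. The part of these markers in the member differences was not tested.

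Among all tested probes, GR24 had 31.5% called higher and 25.5% lower. Markers of undifferentiated myoblasts had 1 higher and 1 lower of 5 tested with GR24 (2 lower with replicate as a block, and without control replicate 1 or GR24 replicate 2), of 8 listed and 8 matched. Pax3 was the brightest probe, and Msc and Heyl were not well above background on any array. Hes1, a target of Notch signalling, rose by 0.65 (SE 0.124) with GR24, 0.55 with pinosylvin and 0.69 with resveratrol, and Myf5 fell by 0.88 (SE 0.0893) with GR24. Pinosylvin had 1 higher and 1 lower, beside 8.28% and 8.27% of all tested probes, and Id1 fell by 0.77 (SE 0.0888). Resveratrol had 1 higher, beside 7.99% of all tested probes. Of 3 endothelial markers tested in limma, 0 were called with any compound, and 1 had an unadjusted p under 0.05 with GR24. In that comparison 1 was called lower without control replicate 1, GR24 replicate 3 or resveratrol replicate 3. The adipocyte markers matched stayed below the background mark on all arrays and were not tested.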

How the data were processed

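The 12 arrays were read from the deposited scanner files, whose processed signals are intensity values background-subtracted within each array by the authors with Agilent Feature Extraction 12.0.0.7. The deposited series table holds 25848 probes as log2 values normalized between arrays by the authors, who named limma but not the normalization steps; it served as an alternative only. Processed signals were log2 transformed, control spots removed, spots marked as outliers set missing, spots of a probe averaged, and the 75th percentile over probes of the array subtracted. A spot counted as well above background by the scanner software's mark, and a probe by at least 50% of its spots. Groups were compared with limma 3.58.1 in R 4.3.3 (lmFit, contrasts.fit, eBayes) on all 12 arrays in 6 contrasts, with Benjamini-Hochberg adjustment over 24279 probes. A gene is represented by its probe with the highest mean. RefSeq accessions gave names to 46.3% of probes. The members and the lists were chosen with earlier results of these data known. The lists were integrins with Itgb1bp2, other membrane fusion genes, cadherins with catenins and nectins, actin remodelling, the Cdon, Boc and neogenin pathway, fusion signals and proteases, myogenic factors, and markers of myotubes, undifferentiated myoblasts, fibroblasts, endothelial cells, leukocytes and adipocytes; 1 further marker list was fixed and is not reported here. All members were named, and from each list at most 4 genes per comparison, those with the largest differences among those called. Between groups, 18 correlations of deviations from the group mean at the same replicate number ranged from 0.191 to 0.744. They were 0.638 to 0.744 for replicate 3, alone on slide 2, and 0.191 to 0.470 for replicates 1 and 2. Whether they reflect pairing or the slide was not tested. Replicate numbers were taken as pairs, and replicate as a block was run as an alternative. Other alternatives were quantile normalization, normexp background correction, no filter, a stricter filter, only the 6 arrays compared, slide as a block, slide 1 only, another variance model, outlier spots kept, the mean of a gene's probes and leaving out each array. The model was also run on simulated data, and no outcome of that run is given or used here.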

Additional observations from a re-analysis of the deposited data

How the results depend on the processing

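With GR24 the members called were 4 against control in every alternative except no filter, where Cdh2 was also tested and called (5), and the filter on all 12 arrays, where Cdon was not tested (3). GR24 against pinosylvin or resveratrol gave 3 to 4. For pinosylvin against control the 2 called became 1 with quantile normalization, normexp, no filter, the filter on all 12 arrays, slide 1 only and the other variance model, 3 with normexp and quantile normalization and with replicate as a block (Jam3 in each) and 4 with slide as a block, and lay between 1 and 2 with 1 array left out. For resveratrol against control the 1 called became 2 with quantile normalization, normexp with quantile normalization, the percentile over spots and replicate as a block, 3 with slide as a block, and 0 with no filter and only the 6 arrays compared, and lay between 0 and 1 with 1 array left out. Cdon, pinosylvin against resveratrol, missed the threshold with quantile normalization (0.29), normexp (0.26), both (0.15), the deposited table (0.21), no filter (0.39), slide 1 only (0.46) and the other variance model (0.39), and lay between 0.35 and 0.46 with 1 array left out. Ncam1 in the same contrast passed at 0.32 with replicate as a block, slide as a block and the other variance model. Cdon, resveratrol against control, reversed with normexp (-0.0086). The cause was not tested. Beyond Jam3 in both comparisons with control and Ncam1 between the stilbenes, replicate as a block changed no call of a member. Over all probes it raised the number called from 4019 to 6947 with pinosylvin, from 4123 to 6769 with resveratrol and from 3528 to 6323 between them. Slide as a block gave 7074, 6869 and 6443 in that order, and no filter gave 2409, 2680 and 1975. With only the 6 arrays compared pinosylvin had 2479. Between the stilbenes there were 2148 without pinosylvin replicate 2, 2237 without resveratrol replicate 2 and 2311 without resveratrol replicate 3. Against control, probes called higher with pinosylvin fell from 2010 to 1250 without pinosylvin replicate 1 and to 1236 without pinosylvin replicate 2. Those called higher with resveratrol fell from 1941 to 1192 without resveratrol replicate 1 and to 1285 without resveratrol replicate 2. Without a filter the median turned from 0.010 to -0.13 for resveratrol against control, and moved from 0.024 to 0.24 for GR24 against resveratrol and from 0.022 to 0.16 between the stilbenes. The percentile over spots moved the median of GR24 against resveratrol from 0.024 to 0.14 and the share of calls that were higher from 53.4% to 64.1%. For GR24 against control the median moved from 0.027 to 0.13 and the share from 55.3% to 63.3%, and quantile normalization gave 0.11 and 60.9%, the deposited values gave 0.092 and 60.9%, and no filter 0.12 and 54.7%. Normexp was run on median signals and, like the percentile over spots, was chosen after seeing the data, since no mean signal was found in the files for the planned one. Dim signals limit Cdon and Cdh2.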
